A study of Mus musculus with 9 samples.

Results

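Myeloid C-type lectin receptors are surface proteins by which macrophages, monocytes, dendritic cells and neutrophils bind sugars and lipids of microbes and of dying cells. Of 9 genes chosen by name (Clec4n, Clec4d, Clec4e, Clec7a, Clec4a1, Clec4a2, Clec4a3, Clec12a and Clec1b), 7 had a probe set filed under exactly that symbol on the array. They gave 10 of the 45037 probe sets tested. Clec4a1 and Clec12a were not analysed here. The genes were chosen with the difference between the groups compared below already known, so their differences are a description and support nothing further.

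The study measured total RNA of frozen spleen tissue with Affymetrix mouse arrays of 1 colour, and each sample has its own array. It holds 4 spleens of healthy wild-type mice and 5 splenic lymphomas of mice that carry a Sca1-MALT1 transgene. Sca1 regulatory elements, after which the transgene is named, are active in blood stem and progenitor cells. The sources used here do not give strain, age, pooling or whether the animals were separate, and p-values therefore measure only the spread between these samples. Every value is a log2 level after RMA, which removes background, makes arrays comparable and gives 1 value to each probe set, and every difference is lymphoma minus wild type. The B-cell genes Ms4a1 (13.83 ± 0.07 in wild type, SD, n = 4, and 13.62 ± 0.44 in lymphoma, SD, n = 5) and Cd79a (11.22 ± 0.22 and 11.15 ± 0.54) were high on both kinds of array.

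The receptors use a few routes into the cell. Dectin-2 (Clec4n), MCL (Clec4d) and Mincle (Clec4e) signal through the adaptor FcR gamma (Fcer1g), whereas Dectin-1 (Clec7a) and CLEC-2 (Clec1b) carry a shortened version of the same activating motif in their own tails. Both routes recruit the kinase SYK, and in myeloid cells SYK acts through CARD9, BCL10 and MALT1 to reach NF-kB, so the protein made by the transgene is also a signalling partner of these receptors. DCIR (Clec4a2) carries an inhibitory motif that recruits phosphatases, and Clec4a3 encodes a close relative of it.

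The genes lie in a pair of clusters on mouse chromosome 6. Promoters were read from RefSeq (build GRCm38.p6) for 8 of the 9 genes, in 10 windows of 250 bases up to the annotated start. Clec4n had no window, and the 8 genes include Clec4a1 and Clec12a, whose levels were not analysed here. Windows are shown for 4 genes that stand for the patterns below, a receptor with an even difference (Clec7a), neighbours with uneven ones (Clec4d and Clec4e) and the platelet receptor (Clec1b). Capitals mark GAGGAA on either strand, the core of the PU-box bound by the myeloid factor PU.1.
Clec7a (chr6:129472780-129473029, minus strand): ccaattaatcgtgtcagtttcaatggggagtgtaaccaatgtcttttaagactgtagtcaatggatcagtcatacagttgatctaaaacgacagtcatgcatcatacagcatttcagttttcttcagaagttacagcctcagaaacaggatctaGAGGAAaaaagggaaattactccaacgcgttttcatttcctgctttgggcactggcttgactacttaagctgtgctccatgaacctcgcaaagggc
Clec4d (chr6:123261857-123262106, plus strand): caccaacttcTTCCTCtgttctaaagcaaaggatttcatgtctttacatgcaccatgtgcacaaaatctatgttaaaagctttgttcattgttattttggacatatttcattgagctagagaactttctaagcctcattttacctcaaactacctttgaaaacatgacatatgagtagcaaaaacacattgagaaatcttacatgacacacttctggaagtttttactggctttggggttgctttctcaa
Clec4e (chr6:123289872-123290121, minus strand): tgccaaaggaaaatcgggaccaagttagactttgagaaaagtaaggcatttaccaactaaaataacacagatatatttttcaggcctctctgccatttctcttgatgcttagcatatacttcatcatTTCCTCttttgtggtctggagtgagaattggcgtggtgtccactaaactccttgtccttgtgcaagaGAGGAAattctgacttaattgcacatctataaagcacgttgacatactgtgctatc
Clec1b (chr6:129397047-129397296, plus strand): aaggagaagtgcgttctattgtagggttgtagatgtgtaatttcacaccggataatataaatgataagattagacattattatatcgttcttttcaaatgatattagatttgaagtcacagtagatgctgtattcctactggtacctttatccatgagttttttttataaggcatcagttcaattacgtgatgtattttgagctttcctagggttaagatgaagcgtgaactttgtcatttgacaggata

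The PU-box core was present in the windows of 6 of the 8 genes, or in 7 of 10 windows, against 23.3% of 32851 windows of all genes. Clec4a1 and Clec12a, whose levels were not analysed here, were among the 6. Some windows of a gene overlap: both Clec7a windows, which start 6 bases apart, hold the same site, so the 10 matches are 9 distinct sites. It stood 96 bases before the start in the Clec7a window shown, 240 before it in Clec4d, and 123 and 56 before it in Clec4e. The Clec1b window held no such match, nor did that of Clec4a2 or 1 of those of Clec4a3. Of 3 other motifs searched on both strands, an NF-kB consensus of 3 G, any 5 bases and a pair of C was in 1 of the 10 windows against 45.8% of all, TTGCNNAA (C/EBP) in 2 against 9.56%, and AGATAA, 1 form of the site that erythroid factors bind, in 0 against 9.99%. Other forms of that site, such as the TGATAA in the Clec1b window shown, were not counted. No PU-box match overlapped a match of the other motifs (0 of 10). These counts describe letters and not binding.

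All 10 probe sets had a higher mean in lymphoma (0 had a lower one), with differences between 0.13 and 2.01. Their median was 1.32, beside -0.010 over all probe sets. In 6 probe sets of 5 genes every lymphoma stood above every wild-type spleen, a pattern found in 2.39% of all probe sets, and in 0 probe sets did every lymphoma stand below them, as 4.08% of all did. Limma, fitted over all probe sets, called 4 of the 10 higher at an adjusted p under 0.05 (both probe sets of Clec4n, and those of Clec7a and Clec1b), where it called 0.251% of all probe sets higher. Nothing is read from these shares, because the genes were chosen with this contrast known. The 4 calls became 1 without wild-type spleen 1, 2 without lymphoma 5, and 0 without wild-type spleen 2, 3 or 4, while all 10 differences stayed positive with any 1 array left out. In bulk tissue, more cells of a type and more RNA per cell cannot be told apart.

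**Figure D1:**
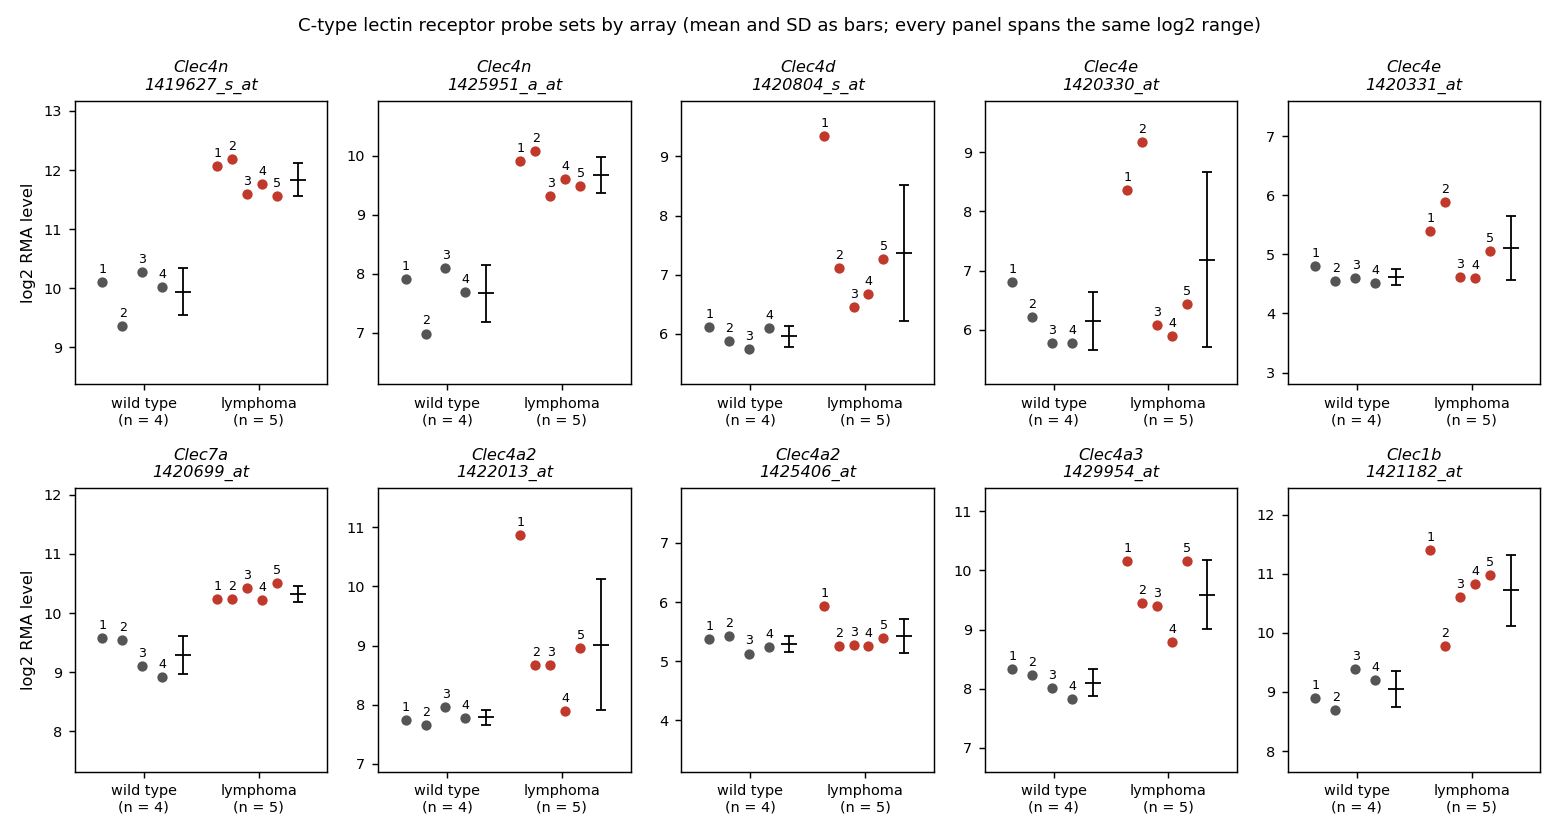
Log2 RMA level of the 10 lectin receptor probe sets in 4 wild-type spleens (grey) and 5 lymphomas (red); points are arrays with their replicate number, and the bar beside them is the mean with its SD. Clec4n and Clec7a are shifted evenly in all 5 lymphomas, whereas Clec4e is highest in lymphomas 1 and 2 and Clec4d and Clec4a2 are highest in lymphoma 1.

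Clec4n encodes Dectin-2, a receptor for mannose-rich fungal and bacterial glycans, and had the largest difference of the 7 genes. Its probe set 1425951_a_at read 7.91, 6.99, 8.09 and 7.69 in wild-type spleens 1 to 4 and 9.90, 10.07, 9.31, 9.60 and 9.49 in lymphomas 1 to 5. The lowest lymphoma stood 1.23 above the highest wild-type spleen, and the lymphomas spread less (range 0.75) than the wild-type spleens (1.10). The difference was 2.01 ± 0.23 (limma SE), or 4.02-fold. The second probe set, 1419627_s_at, which by its suffix may match several transcripts, gave 10.11, 9.37, 10.28 and 10.02 in wild type and 12.06, 12.18, 11.59, 11.77 and 11.56 in lymphoma. Both probe sets placed the arrays of each group in nearly the same order, with wild-type spleen 2 lowest and lymphoma 2 highest, and the second differed by 1.89 ± 0.20 (limma SE).

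Clec4d lies next to Clec4n, and Clec4e next to Clec4d. The proteins of Clec4d and Clec4e form a complex that binds mycobacterial cord factor. Clec4d (probe set 1420804_s_at) read 6.12, 5.88, 5.75 and 6.09 in wild-type spleens 1 to 4 and 9.34, 7.12, 6.45, 6.68 and 7.26 in lymphomas 1 to 5. The groups did not overlap, yet lymphoma 1 lay 2.07 above the next lymphoma. The difference of 1.41 ± 0.50 (limma SE) became 0.92 without lymphoma 1.

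Clec4e was split within the lymphoma group. Probe set 1420330_at read 6.81, 6.22, 5.78 and 5.78 in wild-type spleens 1 to 4 and 8.36, 9.17, 6.08, 5.90 and 6.43 in lymphomas 1 to 5. Lymphomas 1 and 2 stood above every wild-type spleen, and lymphomas 3 to 5 lay inside the wild-type range. The mean difference was 1.04 ± 0.67 (limma SE), and without lymphomas 1 and 2 it was -0.014. The second probe set, 1420331_at, lay near the low end of the arrays' values, where RMA compresses differences, with 4.80, 4.55, 4.60 and 4.52 in wild type and 5.39, 5.88, 4.61, 4.60 and 5.06 in lymphoma. It too was highest in lymphomas 2 and 1 and overlapped between groups, with a difference of 0.49 ± 0.24 (limma SE) and 0.14 without those lymphomas.

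Clec7a encodes Dectin-1, the receptor for fungal beta-glucan. Its probe set 1420699_at read 9.58, 9.54, 9.11 and 8.92 in wild-type spleens 1 to 4 and 10.23, 10.23, 10.43, 10.22 and 10.51 in lymphomas 1 to 5. The 5 lymphomas spanned 0.29, the narrowest lymphoma range of the 10 probe sets, and the lowest of them stood 0.64 above the highest wild-type spleen. The difference was 1.04 ± 0.15 (limma SE), or 2.05-fold. It had nearly the same mean difference as Clec4e, but every lymphoma contributed to it.

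Clec1b encodes CLEC-2, the receptor for podoplanin on platelets, which some myeloid cells also carry. Its probe set 1421182_at read 8.90, 8.70, 9.39 and 9.20 in wild-type spleens 1 to 4 and 11.40, 9.78, 10.61, 10.82 and 10.98 in lymphomas 1 to 5. Lymphoma 2 was the lowest of the lymphomas, 0.38 above the highest wild-type spleen, and lymphoma 1 the highest. The difference was 1.67 ± 0.29 (limma SE), or 3.17-fold, and was 1.75 without lymphomas 1 and 2. Its call held without lymphoma 2 but was lost without any other single array and when the arrays were quantile normalized again.

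The DCIR genes differed less evenly. Clec4a3 (1429954_at) read 8.34, 8.23, 8.01 and 7.83 in wild-type spleens 1 to 4 and 10.16, 9.45, 9.39, 8.79 and 10.16 in lymphomas 1 to 5, without overlap and with a difference of 1.49 ± 0.27 (limma SE). It was not called among all probe sets, but with 1 probe set per gene limma called 4 of the 7 receptor genes and Clec4a3 was the added one, where 0.407% of 18193 genes were called higher.

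Clec4a2 was measured by probe sets that disagreed. On 1422013_at it read 7.74, 7.66, 7.96 and 7.77 in wild-type spleens 1 to 4 and 10.87, 8.67, 8.67, 7.90 and 8.96 in lymphomas 1 to 5. Lymphoma 4 lay inside the wild-type range and lymphoma 1 far above the others, and the difference of 1.23 ± 0.48 (limma SE) became 0.77 without lymphoma 1. On probe set 1425406_at, whose mean lay below the median of all values on the arrays, the wild-type spleens read 5.37, 5.42, 5.13 and 5.24 and the lymphomas 5.93, 5.26, 5.28, 5.26 and 5.39, so that lymphoma 1 alone left the wild-type range and the difference was 0.13 ± 0.14 (limma SE).

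The lymphoma with the highest level was not the same for every receptor. Relative to the wild-type mean, lymphoma 1 was highest for Clec4d (3.38), Clec4a2 (3.08 on the brighter probe set), Clec1b (2.35) and, with lymphoma 5, Clec4a3 (2.06). Lymphoma 2 was highest for Clec4n (2.40 and 2.24) and Clec4e (3.02 and 1.26). Lymphoma 5 was highest for Clec7a (1.22). The SD among lymphomas exceeded that among wild-type spleens in 7 of the 10 probe sets, and the exceptions were Clec7a and both probe sets of Clec4n.

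Markers of macrophages and monocytes, cells that carry many of these receptors, were higher in lymphoma as well. The mean log2 level of 13 macrophage and monocyte markers lay between 9.03 and 9.15 in wild type and between 9.52 and 10.31 in lymphoma, without overlap. Over all 18193 genes limma called 0.407% higher and 0.308% lower, and 2673 had an unadjusted p below 0.05 in either direction. These values stand beside the counts of every marker list. All 13 macrophage and monocyte markers had a higher mean in lymphoma, 8 of them with an unadjusted limma p below 0.05. Limma called 4 of them (Spic, Cd14, Cd68 and Vcam1, higher by 1.38, 1.20, 0.996 and 0.77, limma adjusted p between 0.0156 and 0.0479), while Csf1r, the receptor for the macrophage growth factor, differed by 0.20 (limma adjusted p 0.411). Each of these 4 calls was lost when wild-type spleen 2, 3 or 4 was left out; those of Spic, Cd14 and Cd68 were also lost without wild-type spleen 1 or lymphoma 5, and that of Spic without lymphoma 4. Their part in the receptors' differences was not tested.

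Neutrophil markers varied far more among the lymphomas. The mean of 13 of them lay between 6.74 and 7.24 in wild type and was 11.99, 8.91, 8.16, 6.97 and 8.93 in lymphomas 1 to 5. None of the 13 was called by limma (0, while 7 were higher with an unadjusted p below 0.05), beside 0.407% of all genes called higher. Limma called 1 of them without lymphoma 1, and 1 without lymphomas 1 and 2. Lymphoma 1, where Clec4d and Clec4a2 were highest, had the highest neutrophil mean, and lymphoma 4, where Clec4a2 lay inside the wild-type range, the lowest. Clec4d, however, was lowest in lymphoma 3 (6.45) and not in lymphoma 4 (6.68). Lymphoma 1 also had the highest means of macrophage, platelet and red cell markers (10.31, 10.99 and 10.59). Lymphomas 2 and 5 had nearly equal neutrophil means but differed on Clec4e (9.17 and 6.43). Their part in the differences was not tested.

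Platelet markers varied among the lymphomas too. The mean of 10 megakaryocyte and platelet markers was 8.13, 7.98, 8.82 and 8.80 in wild-type spleens 1 to 4 and 10.99, 9.26, 9.44, 7.51 and 9.73 in lymphomas 1 to 5. Limma called 0 of the 10, with Gp1bb at 1.66 (limma adjusted p 0.438) and Gp5 at 1.41 (0.297). In lymphoma 4 the platelet mean was 0.92 below the wild-type mean, lower than in any wild-type spleen, whereas Clec1b stood 1.77 above its own wild-type mean. The part of platelets in the Clec1b values was not tested. Red cell markers were 3.40 and 3.18 above the wild-type mean in lymphomas 1 and 2 (mean of 9 genes), 1.02, -0.85 and 0.31 in lymphomas 3 to 5. Wild-type spleen 1 stood at 1.03 and was also the highest wild-type spleen for Clec4e. Their part in that gene's values was not tested.

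**Figure D2:**
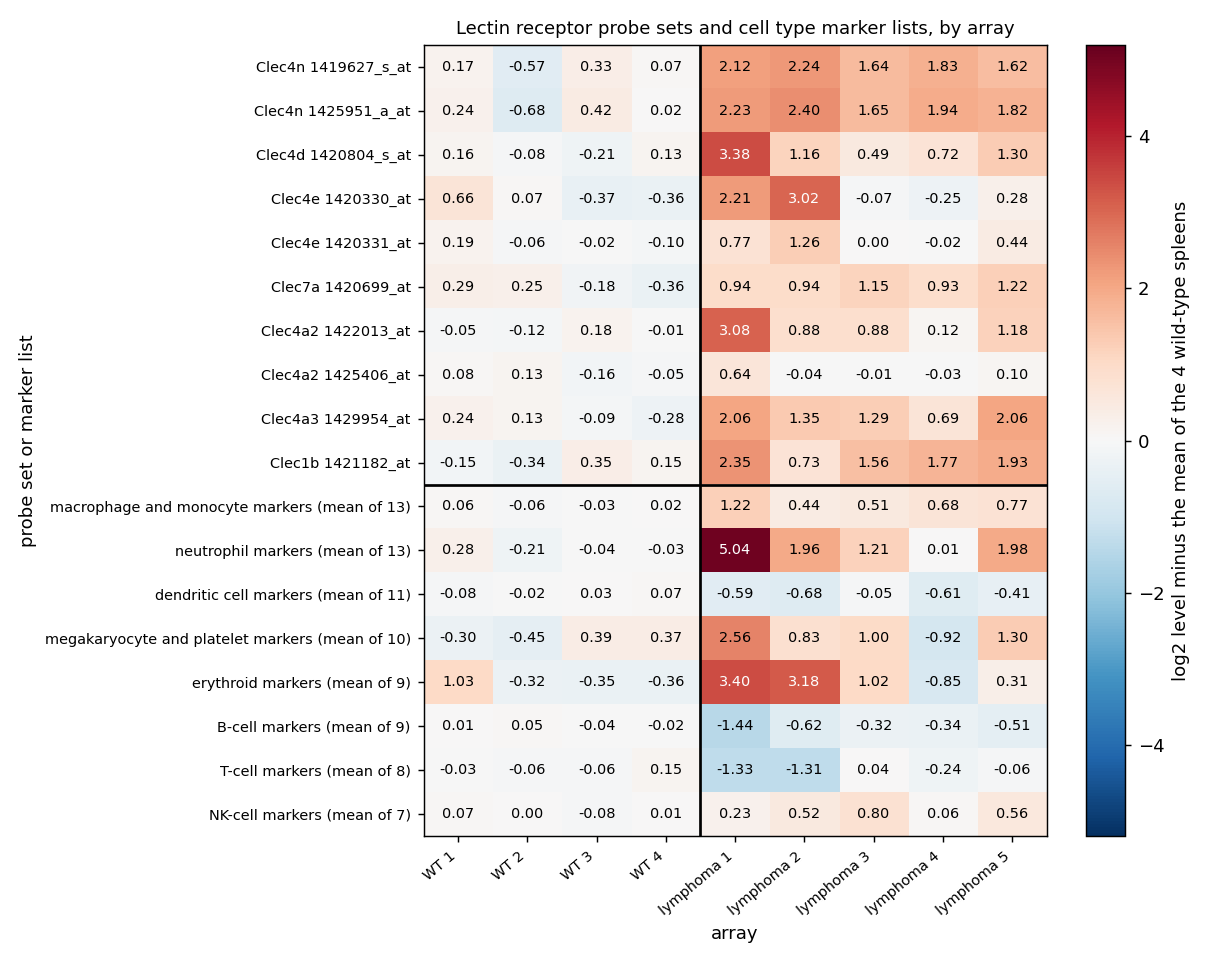
Log2 level minus the mean of the 4 wild-type spleens for each array (columns), for the 10 lectin receptor probe sets (above the line) and the means of 8 cell type marker lists (below it); red is higher and blue lower. Lymphoma 4 has Clec1b at 1.77 beside platelet markers at -0.92, and lymphomas 1 and 2 share high Clec4e and high erythroid markers.

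Markers of dendritic cells, which also carry Dectin-1 and DCIR, mostly had lower means in lymphoma. The mean of 11 of them lay between 8.89 and 9.04 in wild type and between 8.29 and 8.92 in lymphoma, so the groups overlapped. Of the 11, 10 were lower and 1 higher, with a median difference of -0.44, and 5 were lower with an unadjusted limma p below 0.05. Limma called none (0, with the largest differences at Dpp4, -1.15, and Cd8a, -1.0, limma adjusted p 0.19 and 0.233). Without lymphomas 1 and 2, Dpp4 passed at -0.62 (limma adjusted p 0.0331). The mean of 9 B-cell markers lay between 12.17 and 12.27 in wild type and between 10.78 and 11.90 in lymphoma, again with none called (0), and with Fcer2a at -1.77 and Cr2 at -1.25. Both passed without lymphomas 1 and 2 (-0.87 and -0.86, limma adjusted p 0.0147 and 0.00282), and Cr2 also without lymphoma 1 (0.0107). Of 8 T-cell markers and 7 NK-cell markers limma also called 0 each. The T-cell mean was 8.69 in lymphoma 1, 8.70 in lymphoma 2 and 9.77 to 10.06 in the rest, beside 9.95 to 10.16 in wild type, with Cd8b1 at -1.69 (called without lymphoma 3, limma adjusted p 0.0176) and Cd247 at -0.76, which was -0.43 without lymphoma 2 and -0.03 without lymphomas 1 and 2. The NK-cell mean lay between 7.21 and 7.35 in wild type and between 7.34 and 8.08 in lymphoma, with Gzmb at 1.17 and Eomes at 0.74, which passed without lymphoma 2 (0.89, limma adjusted p 0.0236) and without lymphomas 1 and 2 (1.03, limma adjusted p 0.00282).

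Lectin and NK-receptor genes in or near the clusters of the receptors differed by at most 0.60 in size, and none was called (0). Of those measured, only Clec4b1, Clec12b and Clec1a lay between receptor genes. In the Dectin-2 cluster the measured receptor genes Clec4a3, Clec4a2, Clec4n, Clec4d and Clec4e stand in that order, and Clec4b1, between Clec4a3 and Clec4a2, differed by 0.06 ± 0.12 (limma SE, adjusted p 0.868). Clec4b1 was the only listed neighbour measured in that cluster. In the other cluster Clec12b, next to Clec1b, differed by 0.10 (limma adjusted p 0.757), and Clec1a and Olr1, the genes on either side of Clec7a, by 0.32 each (0.454 and 0.644). Dim genes, with means below the median of all values on the arrays, made up 8 of the 14 measured neighbours, among them Clec4b1, Clec12b, Olr1 and Clec2g. Of the 14 measured lectin and NK-receptor genes in or near both clusters limma called 0 (0 had an unadjusted p below 0.05), beside 0.715% of all genes, and the median difference was 0.058 beside 0.0012 over all genes. So few genes can hold no call at that share, so nothing is read from the lack of calls. The largest differences were those of the lectin-like NK ligand genes Clec2g (0.60, or 0.30 without lymphoma 3) and Clec2i (-0.60, or -0.37 without lymphoma 2 and -0.05 without lymphomas 1 and 2). Clec4a4, Clec4b2, Clec9a and Klrb1c were not analysed here.

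**Figure D3:**
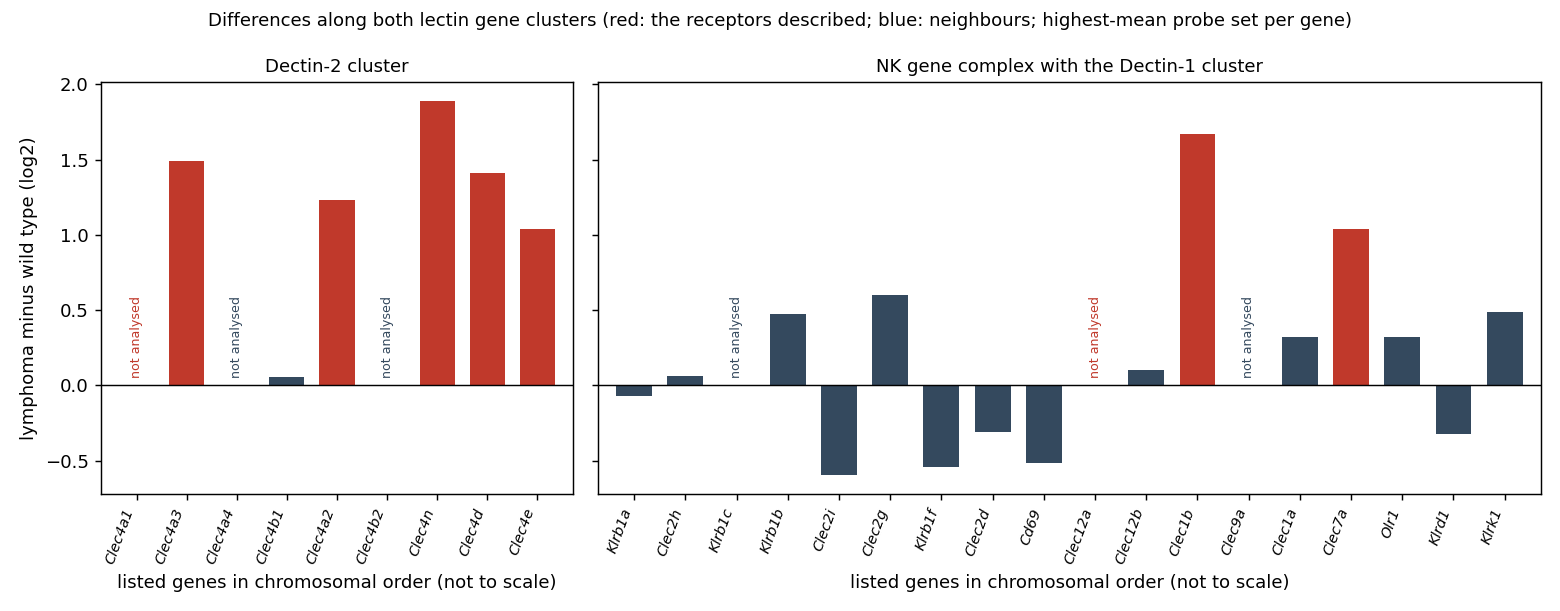
Lymphoma minus wild-type difference (log2) of the receptor genes (red) and of their listed lectin and NK-receptor neighbours (blue) in chromosomal order, with the highest-mean probe set for each gene. The red bars reach 1.04 to 1.89 and no blue bar exceeds 0.60 in size. The receptor genes were chosen with this contrast known, so nothing is read from that gap.

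Among lectins outside both clusters, galectin-3 was higher in lymphoma. Of 18 measured genes limma called 1 higher and 0 lower, beside 0.407% and 0.308% of all genes. The called gene was Lgals3, which encodes a galactose-binding lectin abundant in macrophages. It read 10.24, 10.18, 10.33 and 10.25 in wild-type spleens 1 to 4 and 11.86, 11.05, 11.03, 11.33 and 11.51 in lymphomas 1 to 5, a difference of 1.11 ± 0.16 (limma SE, adjusted p 0.0245). All lymphomas stood above all wild-type spleens, as in 2.39% of all probe sets. The call was lost without any 1 wild-type spleen or without lymphoma 5 (highest limma adjusted p 0.116). The mannose receptor gene Mrc1 differed by 1.75 and the marginal zone macrophage lectin gene Cd209b by -1.19 without passing (limma adjusted p 0.179 and 0.215), and the median of the list was 0.0018.

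Of 39 measured signalling genes below the receptors, in 3 lists, limma called 0, beside 0.715% of all genes. Lists of this size can hold no call at that share, so nothing is read from the 0. An unadjusted p below 0.05 was met by 5 higher and 8 lower genes, beside 2673 of all 18193, and the list medians were -0.086 (16 adaptors and kinases), -0.094 (14 genes of the CARD9, BCL10 and MALT1 arm) and -0.071 (9 inhibitory phosphatases and adaptors). The FcR gamma gene Fcer1g, which the Dectin-2 group needs at the surface, came closest. It read 9.18, 9.25, 9.18 and 9.26 in wild-type spleens 1 to 4 and 10.69, 9.70, 9.94 and 9.72 in lymphomas 1 to 4, with lymphoma 5 second highest, so the groups did not overlap. Its difference was 0.79 ± 0.18 (limma SE, adjusted p 0.0943), and it passed without lymphoma 1 (0.62, limma adjusted p 0.0267) and without lymphomas 1 and 2 (0.67, limma adjusted p 0.00738).

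SYK itself, the kinase shared by both activating routes, differed by -0.12 ± 0.08 (limma SE, adjusted p 0.497), or by 0.14 where the probe sets of the gene were averaged, and the lipid kinase subunit gene Pik3cd by -0.43 (limma adjusted p 0.341). Malt1 read 11.61, 11.71, 11.95 and 12.01 in wild type and 10.78, 11.56, 11.38, 11.29 and 11.13 in lymphoma. All lymphomas stood below all wild-type spleens on that probe set, with a difference of -0.59 ± 0.16 (limma SE, adjusted p 0.133, or 0.0447 without lymphomas 1 and 2). The sources used here do not say whether this probe set reads the transgene, which it therefore does not check. Bcl10 stood at -0.11 (limma adjusted p 0.71) and the calcium-regulated factor gene Nfatc1 at 0.68 (0.303), and Card9 was not analysed here. Ptpn6, the phosphatase that inhibitory receptors such as DCIR recruit, stood at -0.27 (limma adjusted p 0.634, and 0.03 without lymphomas 1 and 2), with the adaptor gene Pag1 at -0.72 and the ubiquitin ligase gene Cblb at -0.45 (0.293 and 0.314).

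Of genes known to respond to these receptors, and of their ligands, limma called none (0), beside 0.715% of all genes. Lists this short can hold no call at that share, so nothing is read from it. Of 18 cytokine, chemokine and early response genes limma called 0 (an unadjusted p below 0.05 was met by 5 higher and 1 lower), and their median difference was 0.093. Dim genes, with means below the median of all values on the arrays, made up 11 of these 18. Il10, an anti-inflammatory cytokine that Dectin-1 and Dectin-2 can induce, read 5.38, 5.21, 5.31 and 5.49 in wild type and 8.12, 6.38, 7.45, 6.29 and 6.88 in lymphoma. Its groups did not overlap, and its difference of 1.68 ± 0.34 (limma SE) had an adjusted p of 0.0637 and passed without lymphoma 1, 2 or 4 (lowest limma adjusted p 0.0335, highest with any array left out 0.223). Egr3 stood at -1.09 and Il1b at 0.54 (limma adjusted p 0.188 and 0.451). Of 7 self ligands limma called 0 (2 were higher with an unadjusted p below 0.05), 6 had a higher mean in lymphoma, and the list mean lay between 9.53 and 9.66 in wild type and between 9.72 and 10.06 in lymphoma, without overlap. Pdpn, the CLEC-2 ligand of fibroblastic and lymphatic cells, stood at 0.34, Anxa1 at 1.05 (0.66 with a limma adjusted p of 0.00435 without lymphomas 1 and 2) and Vim at 0.37 (limma adjusted p 0.373, 0.374 and 0.238 over all arrays).

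**Figure D4:**
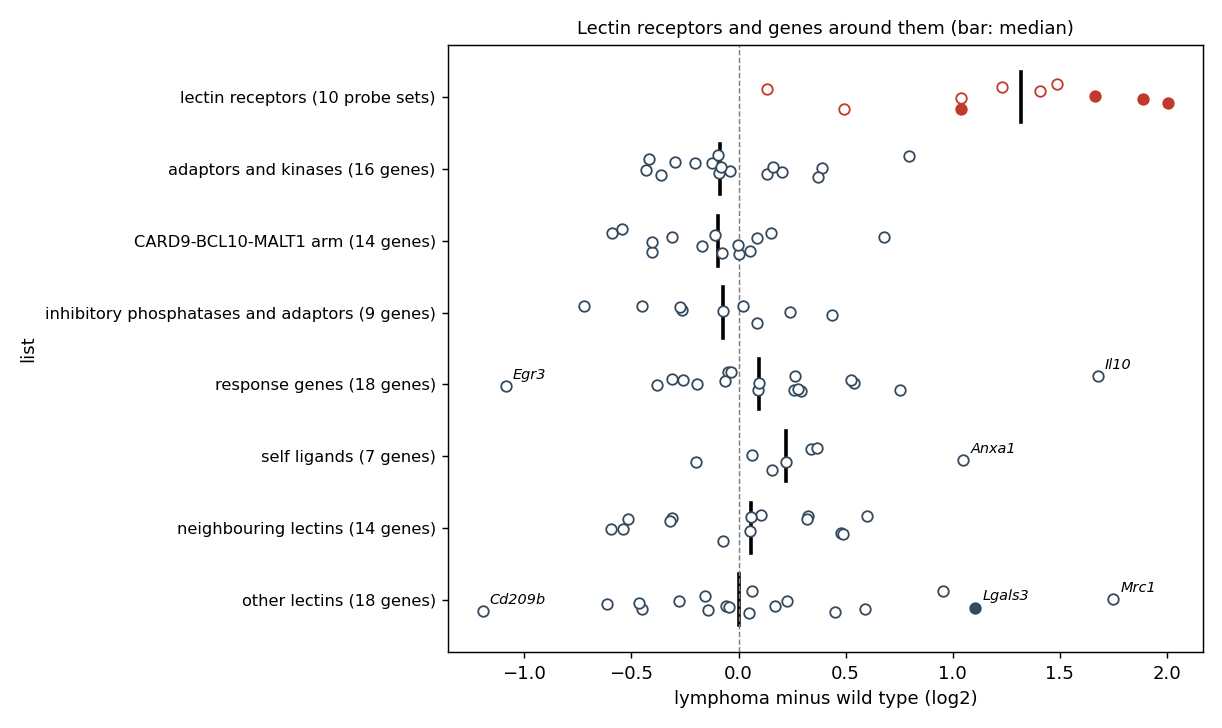
Lymphoma minus wild-type difference (log2) of the 10 lectin receptor probe sets (red) and of the measured genes in 7 lists around them (blue); filled points had a limma adjusted p below 0.05, the black bar is the median, and genes beyond 1 in size are named. The receptors have a median of 1.32, and the 7 lists have medians between -0.094 and 0.22 and 1 filled point, Lgals3. The receptors were chosen with this contrast known, so nothing is read from the gap between these medians.

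Profiles over the 9 arrays were compared by the root mean square distance between log2 values centred on each gene's own mean. The genes nearest to Clec4n were the ficolin gene Fcna, itself a sugar-binding protein of macrophages (0.18), the complement gene C1qa (0.39) and the growth factor gene Pdgfc (0.41), where the median of all other genes was 1.0. Fcna read 8.88, 8.40, 9.07 and 9.23 in wild type and 11.08, 11.26, 10.24, 10.65 and 10.23 in lymphoma, with wild-type spleen 2 lowest and lymphoma 2 highest as for Clec4n. Nearest to Clec1b were Spic (0.26), a transcription factor gene of red pulp macrophages, the arginase gene Arg2 (0.29) and the scramblase gene Plscr2 (0.32), beside a median of 0.95. Nearest to Clec4e were Mgst3 (0.20), C1qtnf12 (0.25) and Tspan33 (0.26), beside a median of 1.17. Tspan33, a tetraspanin gene of red cell precursors and activated B cells, was at 11.79 in lymphoma 1, at 11.75 in lymphoma 2 and at 9.10 to 9.50 in the other lymphomas, the same split as in Clec4e. The distance includes the difference between the groups and carries no test.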

How the data were processed

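The authors deposited log2 values that RMA produced, per the submitters' processing notes. For RMA, version and settings were not given in the sources used here. The table holds 45101 probe sets, of which 64 controls were left out. Array medians lay between 6.88 and 6.97, and the values were used as deposited. Symbols came from the platform annotation, where 932 tested probe sets had several symbols and named no gene. Each of 18193 genes was represented by its brightest probe set on average.

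Groups came from the sample titles and limma 3.58.1 (R 4.3.3) tested their difference with lmFit and eBayes, two-sided, calling a Benjamini-Hochberg adjusted p below 0.05, once over probe sets and once over genes. On values simulated for the 18193 genes limma recovered 83% of genes changed by 1 and 98% of genes changed by 2 (log2), with 14 false calls. The simulated noise was normal, independent between genes and of the same SD in both groups. In the real values the lymphomas had the larger SD in 7 of the 10 receptor probe sets. The simulation therefore gives no measure of recovery in these data. The members, lists and naming rule were chosen with earlier results of these data known. Named are all members, up to 4 called genes per list or else its 2 largest differences, 7 genes of interest (Card9 was not analysed here) and 3 nearest profiles each for Clec4n, Clec4e and Clec1b. Clec4b1, Clec12b, Clec1a, Olr1, Cd79a, Ms4a1, Il1b, Mrc1, Cd209b and Csf1r were named once their values had been seen. Alternatives were a dim filter, other normalizations, another prior, weights for arrays, a test with unequal variances, a block for the replicate number, and leaving out arrays. Scan dates were not used here. Figures were drawn with matplotlib 3.10.9.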

Additional observations from a re-analysis of the deposited data

Results flagged for a closer look

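A single array stood far from the rest of its group in 8 of 102 groups of values examined, where about 5.1 would be flagged by chance (1 in 20) in unselected values. Many of these genes were named for their values, so that rate need not hold and nothing is read from the count. Among the receptors the far array was lymphoma 1, with Clec4d at 9.34 (next lymphoma 7.26) and Clec4a2 on its dim probe set 1425406_at at 5.93 (next 5.39). Lymphoma 1 also stood apart for Anxa1 at 13.80 (next 11.43), Pdgfc at 9.16 (next 8.25) and the complement receptor gene Cr2, where it was lowest at 10.73 (next 12.06). Lymphoma 2 was lowest for Plscr2 at 5.08 (next 6.45). Wild-type spleen 1 was highest of its group for the red cell genes Hbb-b2 at 7.63 (next 5.41) and Rhag at 7.07 (next 4.48).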

How the results depend on the processing

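The number of calls depended on the setting, while the receptors' median difference of 1.32 lay between 0.97 (without lymphomas 1 and 2) and 1.58 (dim filter) under all alternatives run, 0.99 to 1.54 with 1 array left out. Over all arrays limma called 219 probe sets, 130 genes, 4 receptor probe sets and 1 gene of the 7 lists of signalling, response, ligand and lectin genes (marker lists apart), in that order below. Array weights gave 821 probe sets and 532 genes, with 5 listed genes; without lymphomas 1 and 2 these were 935, 601 and 5. The unequal-variance test called 0, 0, 0 and 0, with 5463, 2384, 5 and 24 at an unadjusted p below 0.05. With the replicate number as a block limma called 5 probe sets, 7 genes, 0 receptor probe sets and 0 listed genes (8 and 25 at an unadjusted p below 0.05). Same-numbered samples share only a number: their deviations from the group means correlated by 0.12, -0.20, 0.14 and 0.0041. With 1 array left out the calls ranged from 0 to 530, 10 to 328, 0 to 4 and 0 to 3. The counts of 0 for probe sets came without wild-type spleen 2 or 3 (4191 and 4505 at an unadjusted p below 0.05). When probe sets open to several transcripts were left out, an alternative chosen after seeing the data, the receptors had 3 calls and a median of 1.13. The causes were not tested. RMA gives no detection calls, and differences of dim probe sets may be compressed.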
